A study of Mus musculus with 8 samples.

Results

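The 43 genes described here encode integrin subunits, the proteins that join integrins to actin at focal adhesions, and the actin filament apparatus of the smooth muscle cell. They were taken by symbol from a list that, like those below, was chosen with earlier results of these data known. Counts set against all tested genes are therefore descriptive. All 43 were found among the 27249 genes of the deposited table. All 43 also passed the filter on low values. RNA came from primary mouse vascular smooth muscle cells, sequenced as polyadenylated RNA in 8 libraries in 4 groups of 2. The cells were made to overexpress THOC5, part of the THO complex for mRNA export, or green fluorescent protein (GFP) as the control, whose genotype the labels give as WT. No deletion or further agent is named for any group, and the cells of all groups are described alike. The 4 groups were GFP growth, GFP osteogenic, THOC5 growth and THOC5 osteogenic, where growth stands for growth medium and osteogenic for osteogenic medium, which holds inorganic phosphate (Pi) and was given for 6 days per the series design. The labels do not give the expression vector, the age of the animals or whether replicates were separate cultures, so the p-values measure the spread between these libraries, which may be technical.

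Integrins are heterodimers of an alpha and a beta subunit that cross the plasma membrane and bind the extracellular matrix. Talin and kindlin switch them on from inside the cell, and vinculin, zyxin, paxillin and tensin assemble on their tails into focal adhesions. Filamin, alpha-actinin and nonmuscle myosin then link and tension the actin filaments, which tropomyosin and caldesmon coat. In arterial smooth muscle this chain carries contractile force to the matrix, and several of its genes are known targets of serum response factor (SRF) and its actin-sensing partners, the myocardin-related transcription factors.

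Recovered reads ranged from 7058681 to 10581042 per library. Thoc5 was read first as a check of the labels and held 458 and 471 normalized counts in the GFP growth libraries, 649.5 and 615 in GFP osteogenic, 2155 and 1406 in THOC5 growth and 1780.2 and 1937 in THOC5 osteogenic, so that all 4 THOC5 libraries lay above all 4 GFP libraries. Reads of the introduced and the endogenous gene were not separated. Of the smooth muscle markers, Acta2 ranged from 9489 to 25293 normalized counts and Myh11 from 32.9 to 158, and the summed level of the 7 markers was 11352 to 13081 in GFP osteogenic libraries and 23352 to 30061 in the other 6. Fibroblast markers were abundant as well, with Dcn at 3774 to 16100.5, C3 at 1389 to 18485 and Pdgfra at 889 to 2485, while Pi16 and Dpt stayed at or below 3.82. The summed level of the 8 fibroblast markers was 6111 to 8782 in GFP osteogenic libraries and 28505 to 37830.4 in the others, so it moved with the genes below, and its part in the results was not tested. The 4 endothelial markers in the table summed to 36.7 to 55.4 in GFP osteogenic libraries and 75.8 to 121 in the others, and the 4 Schwann cell markers in the table to 478 to 568 against 766 to 887. The 8 striated muscle markers went the other way, at 104 to 115 against 63.7 to 86.2, and the 7 macrophage markers overlapped, at 461 to 476 against 389.8 to 498. Within each set except the Schwann cell markers, the estimates of the tested markers went both ways in GFP cells. The part of all these sets in the results was not tested either. Ptprc, which marks all white blood cells, was at 0 to 1.88, and Pecam1, of endothelium, at 0.955 to 12.7. In RNA from a whole culture, fewer cells of a type and less RNA per cell cannot be told apart.

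In GFP cells, most of the integrin and actin cytoskeleton genes were lower in osteogenic than in growth medium. Of the 43, 28 fell and 3 rose by limma with Benjamini-Hochberg adjustment over all genes tested (threshold 0.05). Across all 22575 tested genes 10.6% fell and 10.3% rose (20.8% in all), against 65.1% and 6.98% of the 43. The median log2 change of the 43 was -0.43, and that of all tested genes 0.00. The 3 that rose were Itga6, Itga10 and Ptk2. With THOC5 overexpressed, osteogenic medium gave 0 calls among the 43 by limma, 2 by edgeR and 2 by DESeq2. Of all tested genes limma called 0.540%, and 0.00886% fell. Over all genes edgeR called 159 and DESeq2 149. At an unadjusted p under 0.05 there were 4 of the 43, against 1282 of all 22575. THOC5 against GFP in growth medium also gave 0 of 43 by limma, edgeR and DESeq2, where 0.00443% of all tested genes were called. There, 6 of the 43 had an unadjusted p under 0.05, against 1152 of all 22575. Since p was adjusted within each comparison, the bar is stricter where few genes pass, so a count of 0 does not show absence of change. In osteogenic medium, 24 of the 43 were higher and 2 lower in THOC5 than in GFP cells, against 11.3% and 10.7% of all tested genes, and the median difference was 0.42 against 0.00. Scaled to library totals, 3720 of all tested genes rose and 1686 fell in GFP cells, with the median of all genes shifted by 0.14, and the 43 genes then gave 22 lower and 4 higher. For THOC5 against GFP in osteogenic medium the same scaling gave 1662 higher and 4063 lower of all tested genes, a shift of -0.17, and 20 higher and 3 lower of the 43. The GFP osteogenic libraries enter both the GFP response and this last comparison, so both are given as each comparison's own values and not as support for each other.

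**Figure D1:**
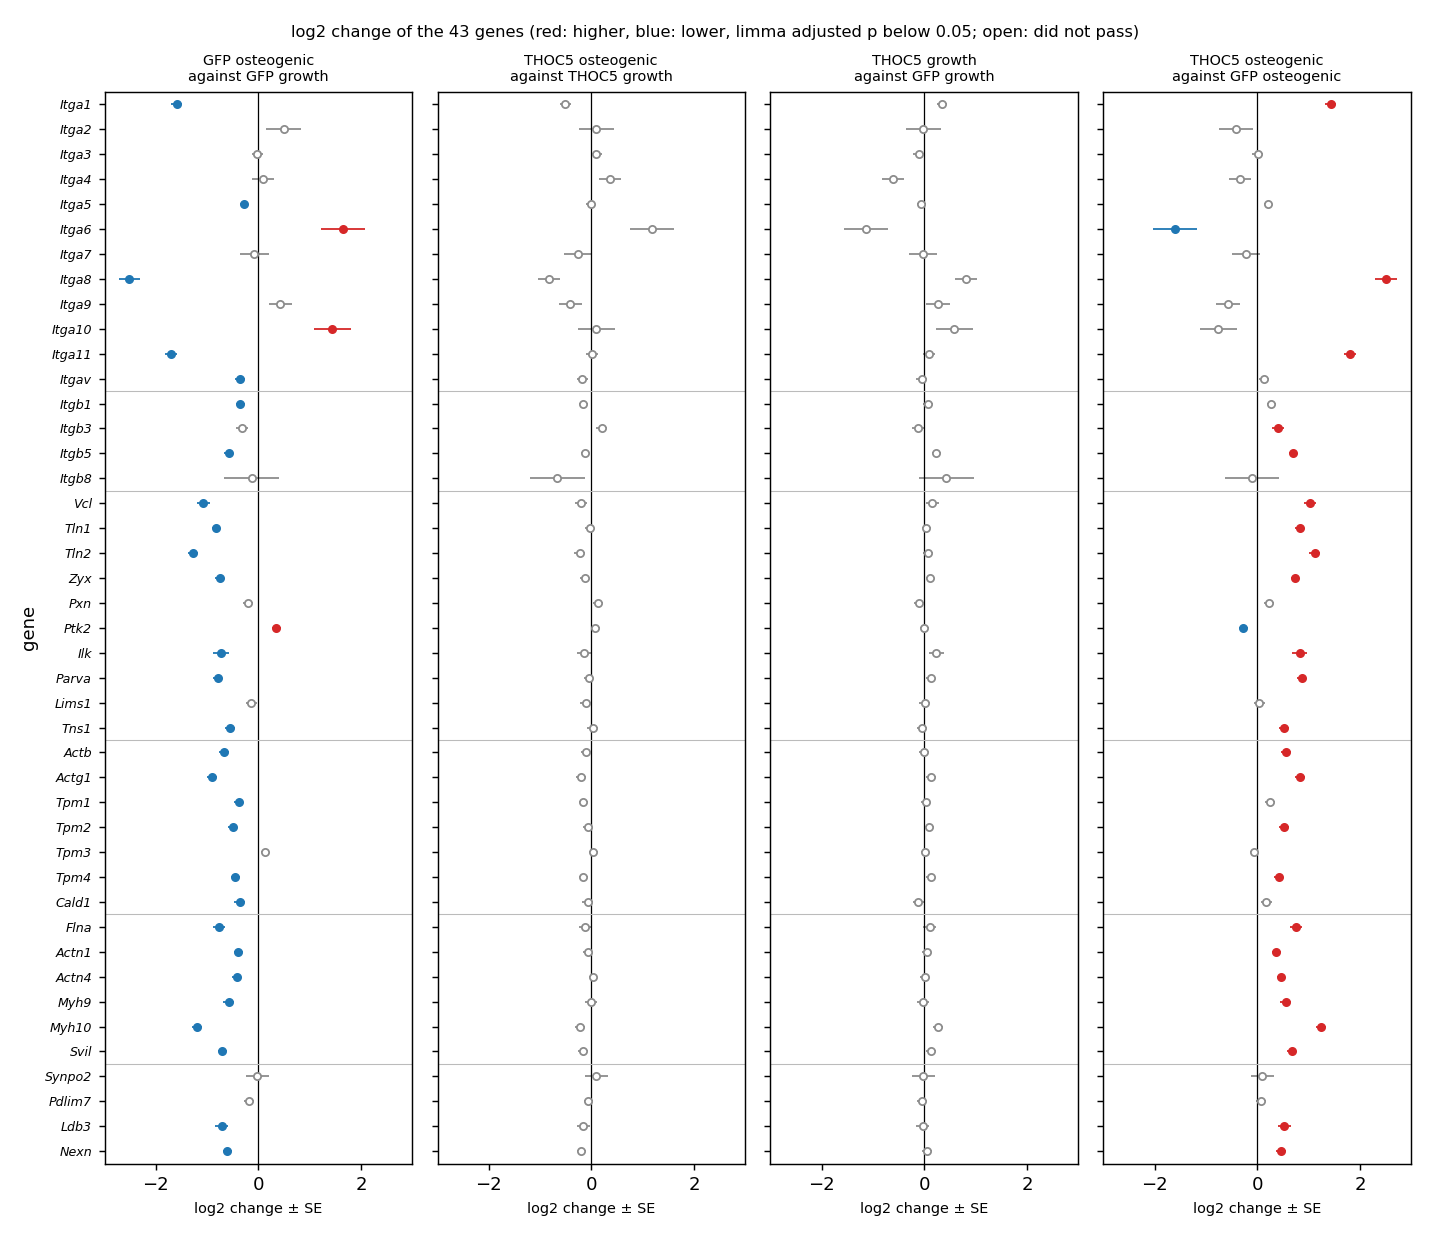
log2 change of each of the 43 genes (rows, grouped by role between grey lines) in 4 comparisons (panels), on the scale of log2(normalized count + 1). Bars are standard errors from 1 limma fit of all 8 libraries, with 2 libraries per group. Filled points passed a limma adjusted p of 0.05 (red higher, blue lower in the first-named group) and open points did not: the left panel has 28 blue and 3 red points, the right panel 24 red and 2 blue, and both middle panels have open points only.

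The collagen-binding alpha subunits split. Itga1, the alpha1 chain, which pairs with beta1 as a receptor for basement membrane collagen (chromosome 13, 114953096 to 115101964, GRCm38), held 982 and 953 normalized counts in the GFP growth libraries, 288 and 355 in GFP osteogenic, 1215 and 1238 in THOC5 growth and 881 and 845 in THOC5 osteogenic. Both GFP osteogenic libraries were the lowest of the 8 and overlapped no other group. Itga1 fell 3.01-fold in GFP cells (log2 -1.59 ± 0.10, limma adjusted p = 4.20e-06). Itga1 was 2.68-fold higher in THOC5 than in GFP cells in osteogenic medium (log2 1.43 ± 0.10, limma adjusted p = 7.58e-06). Itga11, the receptor for fibrillar collagen of mesenchymal cells (chromosome 9, 62677826 to 62783982), held 675 and 728 normalized counts in the GFP growth libraries, 198 and 232 in GFP osteogenic, 675 and 823 in THOC5 growth and 726 and 779 in THOC5 osteogenic. Again only the GFP osteogenic libraries were low, while the other 6 lay close together. Its fall was 3.27-fold (log2 -1.71 ± 0.12, limma adjusted p = 6.50e-06), and THOC5 cells in osteogenic medium were 3.50-fold above GFP cells (log2 1.81 ± 0.12, limma adjusted p = 3.88e-06). Itga10, a collagen receptor best known from cartilage, went the other way at a low level, with 12 and 7 reads in GFP growth and 49 and 28 in GFP osteogenic libraries. It held 14.0 and 9.31 normalized counts in the GFP growth libraries, 42.4 and 25.0 in GFP osteogenic, 20.3 and 15.3 in THOC5 growth and 17.3 and 20.7 in THOC5 osteogenic, and it rose 2.89-fold in GFP cells (log2 1.44 ± 0.36, limma adjusted p = 0.0159). The rise of Itga10 was lost without GFP growth 2 (0.0879) or GFP osteogenic 1 (0.167), and with only the 4 libraries compared (0.0870), where the number after a group is the replicate left out and the adjusted p is in brackets. A neighbouring predicted gene, Gm42957, overlaps 33.5% of the Itga10 exon length, and their reads may not be separable. Itga2, the platelet and epithelial collagen receptor, stayed at 25.3 to 60.5 normalized counts and did not pass in any comparison.

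Of the subunits that recognise the Arg-Gly-Asp (RGD) motif, Itga8 changed most. Itga8, the alpha8 chain, a receptor for nephronectin and fibronectin that marks differentiated smooth muscle (chromosome 2, 12106632 to 12301922), held 329 and 199 normalized counts in the GFP growth libraries, 44.1 and 43.8 in GFP osteogenic, 455 and 447 in THOC5 growth and 218 and 296 in THOC5 osteogenic. The GFP osteogenic libraries were far below all others, and the 2 GFP growth libraries differed from each other by more than those of any other group. Itga8 fell 6.00-fold in GFP cells (log2 -2.51 ± 0.21, limma adjusted p = 1.94e-05). Itga8 was 5.84-fold higher in THOC5 than in GFP cells in osteogenic medium (log2 2.50 ± 0.21, limma adjusted p = 1.74e-05). Itga5, the alpha5 chain of the classical fibronectin receptor (chromosome 15, 103344286 to 103366763), was the most abundant alpha subunit per kb of exon and held 3200.1 and 2835 normalized counts in the GFP growth libraries, 2408 and 2551 in GFP osteogenic, 2935 and 2863 in THOC5 growth and 2839.7 and 2895 in THOC5 osteogenic. The GFP osteogenic libraries were the lowest, but the step was small: Itga5 fell 1.22-fold (log2 -0.28 ± 0.08, limma adjusted p = 0.0347), and THOC5 and GFP cells in osteogenic medium differed by log2 0.21 ± 0.08 (limma adjusted p = 0.103). The Itga5 call was lost without GFP growth 1 (0.220), GFP osteogenic 1 (0.161), THOC5 osteogenic 1 (0.0703) or THOC5 osteogenic 2 (0.0703), and under 4 other settings (0.0513 to 0.268). Itgav, the alphav chain that pairs with several beta subunits and can activate latent TGF-beta (chromosome 2, 83724397 to 83806916), held 3737 and 4407 normalized counts in the GFP growth libraries, 2910.3 and 3426 in GFP osteogenic, 3965 and 3872 in THOC5 growth and 3528 and 3402 in THOC5 osteogenic. In this gene THOC5 osteogenic and GFP osteogenic libraries overlapped. Itgav fell 1.29-fold in GFP cells (log2 -0.36 ± 0.10, limma adjusted p = 0.0279), and its difference between THOC5 and GFP cells in osteogenic medium was log2 0.13 ± 0.10 (limma adjusted p = 0.426). That fall was lost without GFP growth 2 (0.204), GFP osteogenic 1 (0.206), THOC5 osteogenic 1 (0.0646) or THOC5 osteogenic 2 (0.0648), and under 3 other settings (0.0662 to 0.170).

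Among laminin-binding subunits, Itga3, of the alpha3beta1 receptor, was the main one, with 592 and 522 normalized counts in the GFP growth libraries, 579 and 519 in GFP osteogenic, 539.7 and 494 in THOC5 growth and 583 and 520.0 in THOC5 osteogenic. Its 4 groups overlapped, and the GFP response was log2 -0.02 ± 0.11 (limma adjusted p = 0.928). Itga6, the alpha6 chain of laminin receptors in epithelium and endothelium (chromosome 2, 71745616 to 71858416), was scarce, with 10 and 6 reads in GFP growth, 50 and 27 in GFP osteogenic, 4 and 4 in THOC5 growth and 13 and 9 in THOC5 osteogenic libraries. The GFP osteogenic libraries were the highest and overlapped no other group. Itga6 held 11.7 and 7.98 normalized counts in the GFP growth libraries, 43.2 and 24.1 in GFP osteogenic, 3.86 and 3.82 in THOC5 growth and 11.8 and 8.45 in THOC5 osteogenic, and rose 3.43-fold in GFP cells (log2 1.65 ± 0.42, limma adjusted p = 0.0175). Itga6 was 3.33-fold lower in THOC5 than in GFP cells in osteogenic medium (log2 -1.60 ± 0.42, limma adjusted p = 0.0190). The rise was lost without GFP growth 2 (0.0891) or GFP osteogenic 1 (0.177), and with only the 4 libraries compared (0.0710), and the difference in osteogenic medium without GFP osteogenic 1 (0.182), THOC5 osteogenic 1 (0.0585) or THOC5 osteogenic 2 (0.147), and with only the 4 libraries compared (0.0818). Itga7, the laminin receptor of muscle, ranged from 29.1 to 52.4 normalized counts, Itga4, which binds VCAM1 and fibronectin, from 32.5 to 58.1, and Itga9, a tenascin and osteopontin receptor, from 33.2 to 54.6, with its GFP osteogenic libraries the highest. These 3 genes passed in none of the 5 tests.

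Levels of different genes were compared per kb of annotated exon. In GFP growth libraries the alpha subunits ordered as Itga5 (649 and 575 normalized counts per kb), Itgav (348 and 410.1), Itga11 (132 and 142), Itga3 (104 and 91.5), Itga1 (52.8 and 51.2) and Itga8 (44.6 and 27.1), followed by the other 6 at 1.09 to 5.54 on average. Neighbours in this order were separate in both libraries, except that Itga7, Itga9 and Itga2 overlapped. In GFP osteogenic libraries Itga3 (101 and 90.9) stood above Itga11 (38.6 and 45.1) and Itga1 (15.5 and 19.1), and Itga8 had come down to 5.99 and 5.95, among the scarce subunits. Summed over the class, the 4 collagen-binding subunits held 191 and 199.9 normalized counts per kb in GFP growth, 70.7 and 73.6 in GFP osteogenic, 205 and 234 in THOC5 growth and 198 and 205 in THOC5 osteogenic libraries. This class was thus low in the GFP osteogenic libraries alone. Its share of the 12 alpha subunits was 14.1 and 15.2% in GFP growth and 7.39 and 7.18% in GFP osteogenic libraries, and 15.9 and 16.3% in THOC5 osteogenic libraries. The 3 RGD-binding subunits held 1041 and 1012 per kb in GFP growth, 765 and 842 in GFP osteogenic, 1026 and 1001 in THOC5 growth and 934 and 944 in THOC5 osteogenic libraries, lowest in GFP osteogenic. While their level was lower there, their share of the alpha subunits was higher, since the collagen-binding class was lower still. They took 76.9 and 76.9% in GFP growth and 79.9 and 82.1% in GFP osteogenic libraries. The laminin-binding class held 111 and 97.0 per kb in GFP growth and 111 and 98.7 in GFP osteogenic libraries, which overlapped. By count, 5 of the 12 alpha subunits fell (41.7%) and 2 rose (16.7%) in GFP cells, against 10.6% and 10.3% of all tested genes. In osteogenic medium 3 were higher (25%) and 1 lower (8.33%) in THOC5 than in GFP cells, against 11.3% and 10.7%. Scaled to library totals, both comparisons gave 3 and 2. With so few genes, the counts that rose or were lower in THOC5 cells are not a result about the subunits.

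**Figure D2:**
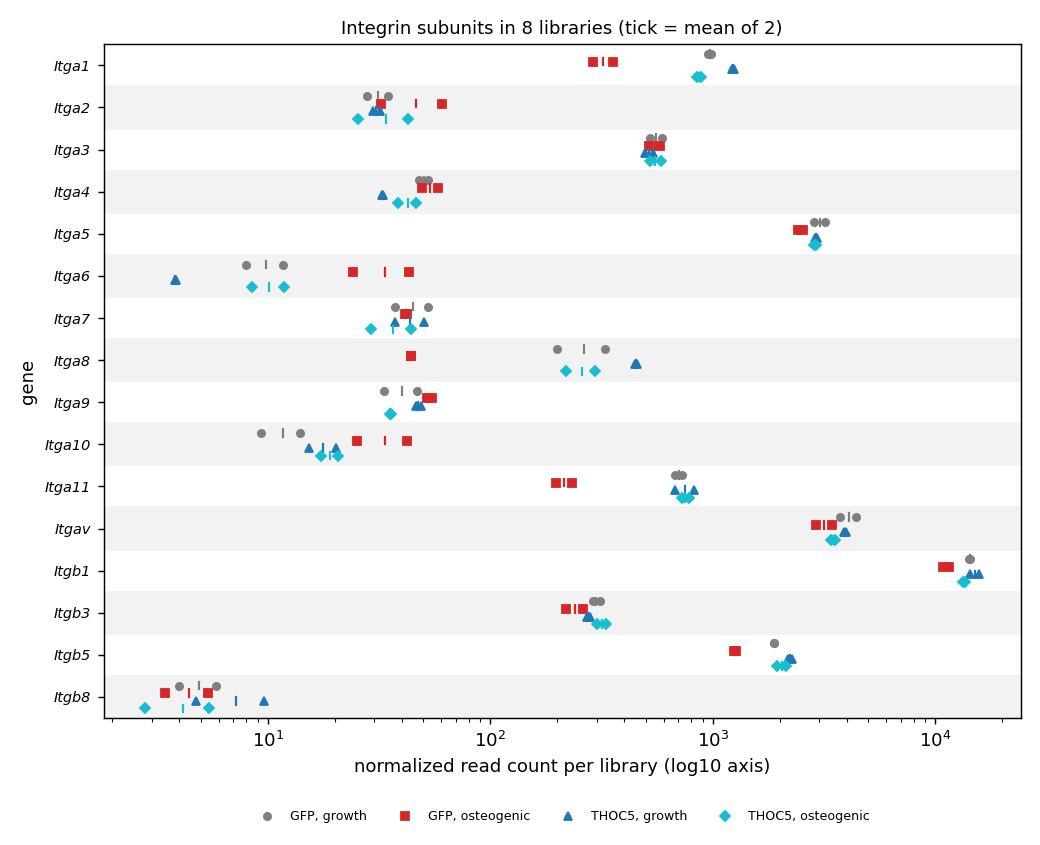
Normalized read counts (log10 axis) of the 12 alpha and 4 beta integrin subunits in each of the 8 libraries, with the group shown by colour and marker shape and a tick at each group's mean. The GFP osteogenic squares lie left of all other points for Itga1, Itga5, Itga8, Itga11, Itgb1, Itgb3 and Itgb5 and right of all others for Itga6, Itga9 and Itga10.

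**Figure D3:**
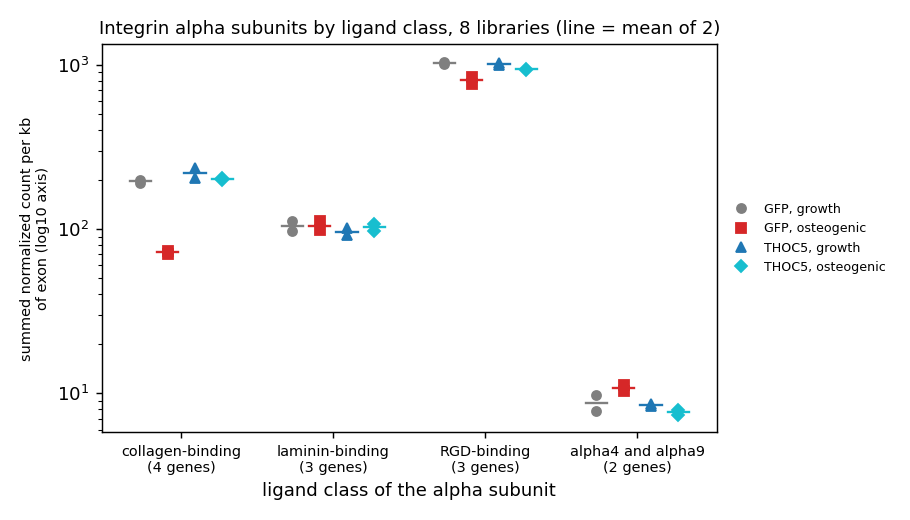
Normalized counts per kb of exon summed over the alpha subunits of each ligand class (log10 axis), 2 libraries per group with a line at their mean. The collagen-binding class is the one in which GFP osteogenic libraries, at 70.7 and 73.6, lie furthest below the other groups.

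Of the 4 beta subunits, 2 fell in GFP cells (50%, against 10.6% of all tested genes). In osteogenic medium 2 were higher in THOC5 than in GFP cells (50%, against 11.3%). Scaled to library totals each count was 1, and with so few genes these counts are not a result about the subunits. Itgb1, the common partner of the collagen, laminin and fibronectin receptors (chromosome 8, 128685654 to 128733200), was the most abundant integrin gene and held 14201 and 14339 normalized counts in the GFP growth libraries, 10798 and 11519 in GFP osteogenic, 15668 and 14343 in THOC5 growth and 13291 and 13644 in THOC5 osteogenic. GFP osteogenic libraries were the lowest, and no group overlapped them. Itgb1 fell 1.28-fold in GFP cells (log2 -0.36 ± 0.09, limma adjusted p = 0.0169), and the difference between THOC5 and GFP cells in osteogenic medium was log2 0.27 ± 0.09 (limma adjusted p = 0.0541). The fall was lost without GFP growth 1 (0.0654), GFP growth 2 (0.0803) or GFP osteogenic 1 (0.0703), and scaled to library totals (0.125) and with only the 4 libraries compared (0.0844). Itgb5, which pairs with alphav to bind vitronectin (chromosome 16, 33829665 to 33949338), held 1889 and 1877 normalized counts in the GFP growth libraries, 1267 and 1249 in GFP osteogenic, 2269 and 2169.8 in THOC5 growth and 1938 and 2138 in THOC5 osteogenic. Both GFP osteogenic libraries lay well below the rest. Itgb5 fell 1.5-fold (log2 -0.58 ± 0.08, limma adjusted p = 4.74e-04). Itgb5 was 1.62-fold higher in THOC5 than in GFP cells in osteogenic medium (log2 0.69 ± 0.08, limma adjusted p = 1.38e-04). Itgb3, the beta3 chain of the vitronectin and osteopontin receptor, held 310.0 and 288 normalized counts in the GFP growth libraries, 262 and 219 in GFP osteogenic, 272 and 279 in THOC5 growth and 331 and 302 in THOC5 osteogenic. It did not pass in GFP cells (log2 -0.32 ± 0.12, limma adjusted p = 0.0769). Itgb3 was 1.32-fold higher in THOC5 than in GFP cells in osteogenic medium (log2 0.40 ± 0.12, limma adjusted p = 0.0293). The Itgb3 difference was lost without GFP osteogenic 2 (0.181), THOC5 osteogenic 1 (0.189) or THOC5 osteogenic 2 (0.0925), and under 3 other settings (0.0652 to 0.214). Itgb8, the alphav partner in TGF-beta activation, had 3 to 10 reads per library, and no difference was detectable at this depth.

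Of the 10 adaptors and kinases that couple integrins to actin and to signalling, 7 fell and 1 rose in GFP cells. The shares of all tested genes were 10.6% and 10.3%, and the median log2 change of the 10 was -0.74. In osteogenic medium 7 of the 10 were higher and 1 lower in THOC5 than in GFP cells, with a median of 0.78. The shares of all tested genes there were 11.3% and 10.7%. Tln1, the main talin, which binds the beta tail and activates the integrin (chromosome 4, 43531519 to 43562691), held 8369 and 7811 normalized counts in the GFP growth libraries, 4409 and 4712 in GFP osteogenic, 8481 and 8076 in THOC5 growth and 7800.4 and 8384 in THOC5 osteogenic. Low values were found in the GFP osteogenic libraries alone, and the other 6 overlapped. It fell 1.77-fold (log2 -0.83 ± 0.09, limma adjusted p = 8.18e-05). Tln1 was 1.77-fold higher in THOC5 than in GFP cells in osteogenic medium (log2 0.83 ± 0.09, limma adjusted p = 7.52e-05). Tln2, the second talin (chromosome 9, 67217087 to 67559703), held 935 and 837 normalized counts in the GFP growth libraries, 342 and 389 in GFP osteogenic, 934 and 925 in THOC5 growth and 733 and 856 in THOC5 osteogenic. The pattern was that of Tln1 with a larger step: Tln2 fell 2.42-fold (log2 -1.27 ± 0.11, limma adjusted p = 1.92e-05). Tln2 was 2.17-fold higher in THOC5 than in GFP cells in osteogenic medium (log2 1.12 ± 0.11, limma adjusted p = 3.75e-05). Zyx, zyxin, a LIM protein of mature adhesions and strained stress fibres (chromosome 6, 42349630 to 42360213) and the most abundant of these 10 per kb, held 7360.5 and 6997 normalized counts in the GFP growth libraries, 4126 and 4388 in GFP osteogenic, 7703 and 7799 in THOC5 growth and 6775 and 7405 in THOC5 osteogenic. No other group reached down to its GFP osteogenic libraries, and zyxin fell 1.69-fold (log2 -0.75 ± 0.08, limma adjusted p = 1.30e-04). Zyx was 1.67-fold higher in THOC5 than in GFP cells in osteogenic medium (log2 0.74 ± 0.08, limma adjusted p = 1.39e-04). Parva, alpha-parvin of the ILK-PINCH-parvin complex (chromosome 7, 112427505 to 112591692), held 2689.7 and 2745 normalized counts in the GFP growth libraries, 1486 and 1645 in GFP osteogenic, 2823 and 3096 in THOC5 growth and 2687 and 3026 in THOC5 osteogenic. It fell 1.74-fold (log2 -0.80 ± 0.09, limma adjusted p = 1.50e-04). Parva was 1.82-fold higher in THOC5 than in GFP cells in osteogenic medium (log2 0.87 ± 0.09, limma adjusted p = 7.89e-05).

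Vcl, vinculin, which binds talin under tension and recruits actin (chromosome 14, 20929398 to 21033676), held 8447 and 6938 normalized counts in the GFP growth libraries, 3241 and 4082 in GFP osteogenic, 8932 and 8122 in THOC5 growth and 7267 and 7544 in THOC5 osteogenic. Both GFP osteogenic libraries were below all others. It fell 2.10-fold (log2 -1.07 ± 0.12, limma adjusted p = 1.60e-04). Vcl was 2.02-fold higher in THOC5 than in GFP cells in osteogenic medium (log2 1.03 ± 0.12, limma adjusted p = 1.93e-04). Exons of Ap3m1 on the opposite strand overlap 25.5% of the vinculin exon length, and the library kit did not mark strand. Tns1, tensin 1, which ties the beta tail to actin, changed by log2 -0.55 ± 0.10 in GFP cells (limma adjusted p = 0.00277) and differed by 0.53 ± 0.10 in THOC5 against GFP cells in osteogenic medium (limma adjusted p = 0.00330). The Tns1 difference was lost without THOC5 osteogenic 2 (0.0638). Ilk, the integrin-linked pseudokinase, had 94.4 and 94.4 normalized counts in the GFP growth libraries, 57.1 and 56.3 in GFP osteogenic, 104 and 118 in THOC5 growth and 101 and 101 in THOC5 osteogenic, with -0.72 ± 0.15 in GFP cells (limma adjusted p = 0.00563) and 0.82 ± 0.15 for THOC5 against GFP in osteogenic medium (limma adjusted p = 0.00254), both on the log2 scale. Exons of other genes, led by Taf10 on the opposite strand, overlap 89.7% of the Ilk exon length, so the Ilk value is uncertain. Ptk2, the focal adhesion kinase that signals from clustered integrins (chromosome 15, 73205102 to 73423280), was the exception and held 1008 and 1114 normalized counts in the GFP growth libraries, 1363 and 1332 in GFP osteogenic, 1020.5 and 1102 in THOC5 growth and 1141 and 1091 in THOC5 osteogenic. Here the GFP osteogenic libraries were the highest of the 8. Ptk2 rose 1.27-fold in GFP cells (log2 0.35 ± 0.09, limma adjusted p = 0.0140). Ptk2 was 1.21-fold lower in THOC5 than in GFP cells in osteogenic medium (log2 -0.27 ± 0.09, limma adjusted p = 0.0414). The rise was lost without GFP growth 1 (0.103) or GFP osteogenic 1 (0.0809), and with only the 4 libraries compared (0.0677), and the difference without GFP osteogenic 1 (0.154), GFP osteogenic 2 (0.0907), THOC5 osteogenic 1 (0.114) or THOC5 osteogenic 2 (0.233), and with no filter on low values (0.0542) and with only the 4 libraries compared (0.0546). Pxn, the paxillin scaffold, and Lims1, the PINCH1 adaptor, did not pass, at log2 -0.21 ± 0.09 and -0.14 ± 0.11 in GFP cells (limma adjusted p = 0.146 and 0.448).

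Of the 7 genes for the actin filament and its coat, 6 fell in GFP cells (10.6% of all tested genes did). In osteogenic medium 4 were higher in THOC5 than in GFP cells (11.3% of all tested genes were). Scaled to library totals the first count was 4 lower and 1 higher. Actb, cytoplasmic beta-actin and the most abundant of the 43 per kb (chromosome 5, 142903115 to 142906754), held 25604 and 26586 normalized counts in the GFP growth libraries, 15812 and 16810.0 in GFP osteogenic, 25388 and 26523 in THOC5 growth and 24127 and 23931 in THOC5 osteogenic. A wide gap separated the low GFP osteogenic libraries from the other 6. Actb, which is often used as a reference gene, fell 1.60-fold (log2 -0.68 ± 0.10, limma adjusted p = 5.68e-04). Actb was 1.47-fold higher in THOC5 than in GFP cells in osteogenic medium (log2 0.56 ± 0.10, limma adjusted p = 0.00171). Actg1, cytoplasmic gamma-actin (chromosome 11, 120345690 to 120348542), held 5431 and 4948 normalized counts in the GFP growth libraries, 2624 and 2957 in GFP osteogenic, 6047 and 5329 in THOC5 growth and 4825 and 5085 in THOC5 osteogenic. It followed Actb, with a 1.86-fold fall (log2 -0.90 ± 0.10, limma adjusted p = 1.01e-04) and a 1.78-fold higher level in THOC5 than in GFP cells in osteogenic medium (log2 0.83 ± 0.10, limma adjusted p = 1.53e-04). Of the 50-base windows of Actg1 transcripts, 37.4% also occur in transcripts of other genes, mostly the pseudogene Gm12715, and for Actb the share is 9.12%, so reads of these loci may have been split or dropped. Tpm2, the beta-tropomyosin gene, held 1888 and 1966 normalized counts in the GFP growth libraries, 1322 and 1405 in GFP osteogenic, 1912 and 2215 in THOC5 growth and 1885 and 2024 in THOC5 osteogenic. Tpm4, a short cytoskeletal tropomyosin (chromosome 8, 72134975 to 72153142), held 9169 and 8812 normalized counts in the GFP growth libraries, 6358 and 6786 in GFP osteogenic, 10174 and 9437 in THOC5 growth and 8536 and 9034 in THOC5 osteogenic. In both, the GFP osteogenic libraries lay below all 6 others. Tpm2 fell 1.41-fold (log2 -0.50 ± 0.09, limma adjusted p = 0.00265) and was higher by log2 0.52 ± 0.09 in THOC5 cells (limma adjusted p = 0.00196). Tpm4 fell 1.37-fold (log2 -0.45 ± 0.09, limma adjusted p = 0.00365) and was higher by log2 0.42 ± 0.09 (limma adjusted p = 0.00535). The Tpm4 difference was lost without THOC5 osteogenic 2 (0.0810), and scaled to library totals (0.0608). Tpm1, the main smooth muscle tropomyosin gene, and Cald1, caldesmon, passed at log2 -0.38 ± 0.09 and -0.37 ± 0.11 (limma adjusted p = 0.0101 and 0.0338). The Tpm1 call was lost without GFP growth 1 (0.0654) or GFP osteogenic 1 (0.0555), and scaled to library totals (0.0718) and with only the 4 libraries compared (0.0781), and that of Cald1 without GFP growth 1 (0.0789), GFP growth 2 (0.151), GFP osteogenic 1 (0.195), THOC5 osteogenic 1 (0.0756) or THOC5 osteogenic 2 (0.0760), and under 3 other settings (0.0689 to 0.176). Tpm3 did not pass at log2 0.13 ± 0.08, and 23.2% of its windows are shared with Tpm3-rs7. Counts per gene do not separate the muscle and nonmuscle isoforms of Tpm1, Tpm2 and Cald1.

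**Figure D4:**
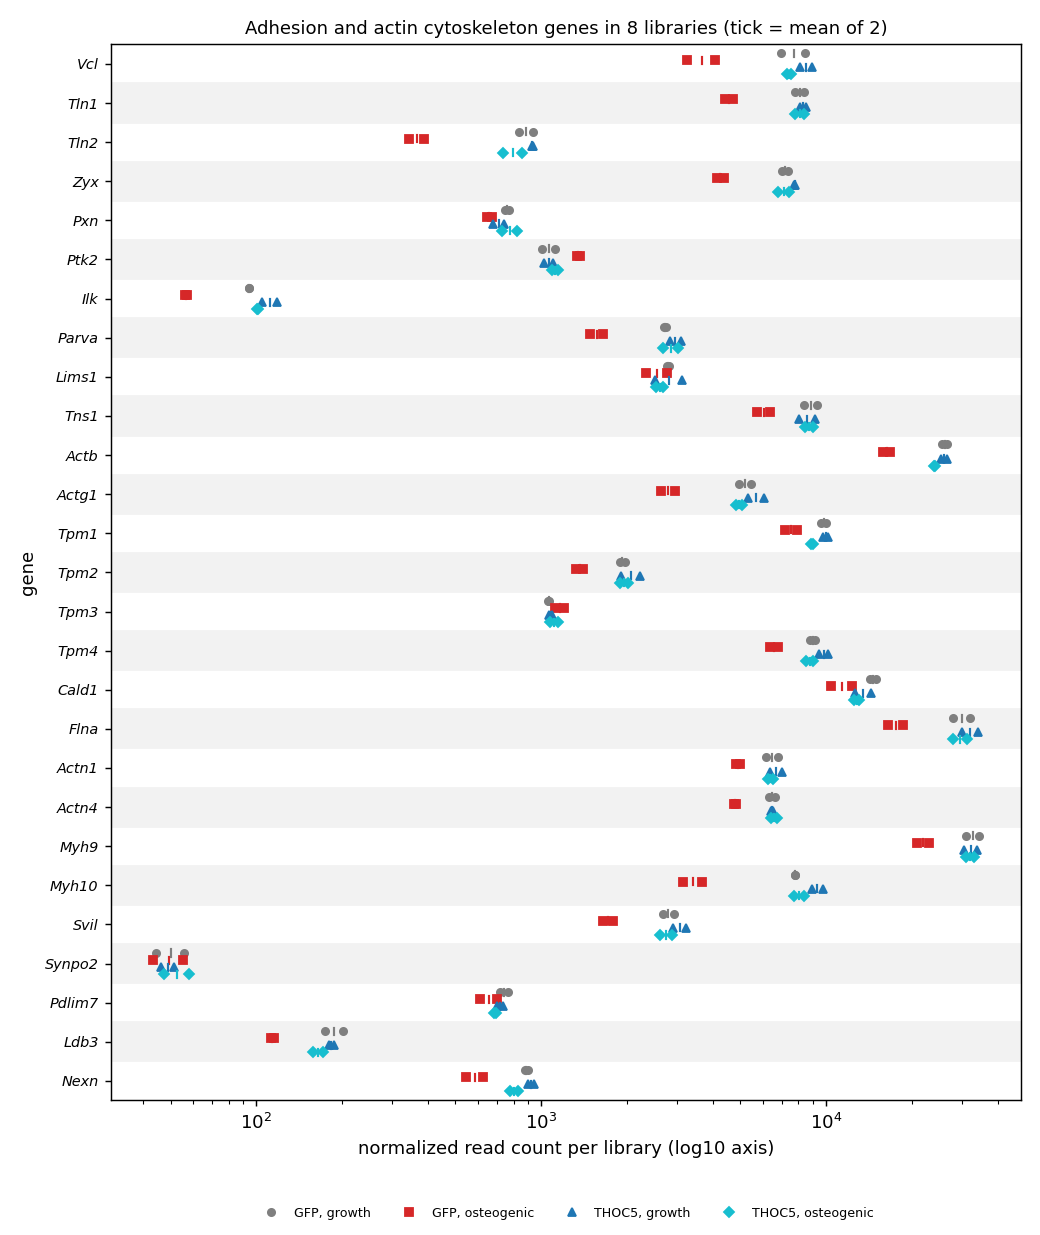
Normalized read counts (log10 axis) of the 27 adhesion and actin cytoskeleton genes in each of the 8 libraries, by group colour and marker, with a tick at each group's mean. GFP osteogenic squares lie left of the other 6 libraries in most rows, as in Actb at 15812 and 16810.0, and right of them in Ptk2.

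Promoter windows of 300 bases, from 250 before to 50 after an annotated start site, were found for 33 of the 43 genes (RefSeq, GRCm38.p6). They were searched on both strands for the CArG box, the site bound by SRF, for the MCAT element CATTCC, which TEAD factors bind, and for the AP-1 site TGACTCA. An exact CArG box was present for 3 of the 33 genes (9.09%), and for 488 of all 27025 genes with a window (1.81%). The MCAT element was present for 8 (24.2%, against 16.6% of all genes) and the AP-1 site for 4 (12.1%, against 5.95%), and no match of one motif overlapped another. The genes with MCAT were Itga10, which rose in GFP cells, and Itgb1, Vcl, Tpm1, Cald1, Flna, Actn4 and Myh10, which fell. Those with AP-1 were Itga9, which did not pass, and Zyx, Cald1 and Ldb3, which fell. The 3 genes with a CArG box were vinculin, gamma-actin and Ldb3. All 3 fell in GFP cells and were higher in THOC5 cells in osteogenic medium, as were 28 and 24 of the 43. A link between motif and change was not tested. The stretches that hold the box are shown 5′ to 3′ on the gene's strand, with the box in capitals and 20 bases on each side, because they are the matches to the motif of the best-known regulator of this gene group. In Vcl the box begins 227 bases before the start site (chr14:20929151-20929200, + strand), in Actg1 90 bases before it (chr11:120348556-120348605, - strand), and in Ldb3, with 2 annotated start sites, 109 and 35 bases before them (chr14:34588687-34588736, - strand).
Vcl: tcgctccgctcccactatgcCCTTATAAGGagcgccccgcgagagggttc
Actg1: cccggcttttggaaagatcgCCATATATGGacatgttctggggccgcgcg
Ldb3: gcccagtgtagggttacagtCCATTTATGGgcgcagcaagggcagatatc
A match is a run of letters and was not shown to be bound here.

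All 6 genes for actin crosslinkers and nonmuscle myosin heavy chains fell in GFP cells, against 10.6% of all tested genes. In osteogenic medium all 6 were higher in THOC5 than in GFP cells, against 11.3% of all tested genes. Scaled to library totals the counts were 5 and 5, without Actn1. Myh10, the heavy chain of nonmuscle myosin IIB (chromosome 11, 68691559 to 68816632), held 7803 and 7763 normalized counts in the GFP growth libraries, 3148 and 3658 in GFP osteogenic, 8915 and 9732 in THOC5 growth and 7709 and 8343 in THOC5 osteogenic. Each GFP osteogenic library stood below every other library. Myh10 fell 2.29-fold (log2 -1.20 ± 0.10, limma adjusted p = 1.65e-05). Myh10 was 2.36-fold higher in THOC5 than in GFP cells in osteogenic medium (log2 1.24 ± 0.10, limma adjusted p = 1.19e-05). Flna, filamin A, which crosslinks actin and binds beta tails (chromosome X, 74223461 to 74249820) and the most abundant of these 6 per kb, held 31937 and 27902 normalized counts in the GFP growth libraries, 16559 and 18562 in GFP osteogenic, 34194 and 30001 in THOC5 growth and 27969 and 31185 in THOC5 osteogenic. Its GFP osteogenic libraries were again the lowest. Filamin A fell 1.70-fold (log2 -0.77 ± 0.12, limma adjusted p = 0.00114). Flna was 1.68-fold higher in THOC5 than in GFP cells in osteogenic medium (log2 0.75 ± 0.12, limma adjusted p = 0.00117). Svil, supervillin, which ties actin and myosin to membranes, held 2915 and 2679 normalized counts in the GFP growth libraries, 1646 and 1791 in GFP osteogenic, 3221 and 2912 in THOC5 growth and 2608 and 2869.5 in THOC5 osteogenic. It fell 1.63-fold (log2 -0.70 ± 0.09, limma adjusted p = 3.34e-04). Svil was 1.59-fold higher in THOC5 than in GFP cells in osteogenic medium (log2 0.67 ± 0.09, limma adjusted p = 3.97e-04). Actn4, a nonmuscle alpha-actinin, held 6596 and 6288 normalized counts in the GFP growth libraries, 4745 and 4834 in GFP osteogenic, 6497 and 6421 in THOC5 growth and 6415 and 6751 in THOC5 osteogenic. Actn4 was lowest in the GFP osteogenic libraries, by a smaller step than Myh10. The fall was 1.34-fold (log2 -0.43 ± 0.08, limma adjusted p = 0.00288), and the difference in osteogenic medium log2 0.46 ± 0.08 (limma adjusted p = 0.00177). Actn1, the other nonmuscle alpha-actinin, fell in GFP cells (log2 -0.39 ± 0.09, limma adjusted p = 0.00913) and was higher in THOC5 cells in osteogenic medium (log2 0.37 ± 0.09, limma adjusted p = 0.0114). The first was lost without GFP growth 1 (0.0752) or GFP osteogenic 1 (0.0547), and scaled to library totals (0.0628) and with only the 4 libraries compared (0.0630), and the second without GFP osteogenic 1 (0.0614), THOC5 osteogenic 1 (0.0626) or THOC5 osteogenic 2 (0.118), and scaled to library totals (0.134). Myh9, nonmuscle myosin IIA, fell in GFP cells (log2 -0.58 ± 0.11, limma adjusted p = 0.00397) and was higher in THOC5 cells in osteogenic medium (log2 0.55 ± 0.11, limma adjusted p = 0.00502). The first was lost with only the 4 libraries compared (0.0578), and the second without THOC5 osteogenic 2 (0.0829), and with only the 4 libraries compared (0.0612).

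Of the 4 Z-disc and stress-fibre proteins, 2 fell in GFP cells and were higher in THOC5 than in GFP cells in osteogenic medium. The shares of all tested genes were 10.6% and 11.3%, and with so few genes these counts are not a result about the list. Nexn, nexilin, an actin-binding protein of Z-discs and adhesions (chromosome 3, 152236982 to 152266350), held 874 and 899.9 normalized counts in the GFP growth libraries, 542 and 626 in GFP osteogenic, 899 and 943 in THOC5 growth and 827 and 779 in THOC5 osteogenic. Its lowest values were those of the GFP osteogenic libraries. It fell 1.52-fold (log2 -0.61 ± 0.09, limma adjusted p = 9.27e-04). Nexn was 1.37-fold higher in THOC5 than in GFP cells in osteogenic medium (log2 0.46 ± 0.09, limma adjusted p = 0.00434). The Nexn difference was lost without THOC5 osteogenic 1 (0.0560), and with only the 4 libraries compared (0.0596). Ldb3, the PDZ and LIM protein ZASP of muscle Z-discs (chromosome 14, 34526603 to 34588682), held 202 and 174 normalized counts in the GFP growth libraries, 115 and 113 in GFP osteogenic, 187 and 179.5 in THOC5 growth and 172 and 158 in THOC5 osteogenic. It fell 1.65-fold (log2 -0.71 ± 0.13, limma adjusted p = 0.00227). Ldb3 was 1.45-fold higher in THOC5 than in GFP cells in osteogenic medium (log2 0.53 ± 0.13, limma adjusted p = 0.0115). The Ldb3 difference was lost without GFP osteogenic 1 (0.0574), GFP osteogenic 2 (0.0532), THOC5 osteogenic 1 (0.0948) or THOC5 osteogenic 2 (0.0559), and scaled to library totals (0.0671). Synpo2, synaptopodin 2, ranged from 43.2 to 58.2 normalized counts, and Pdlim7 from 610.0 to 767, and neither passed, at log2 -0.02 ± 0.23 and -0.18 ± 0.09 in GFP cells.

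Within THOC5 cells, none of the 43 genes passed between the media by limma. The median log2 change of the 43 was -0.11 and that of all tested genes -0.01, and 30 of the 43 estimates were below 0. The 2 genes called lower by edgeR and by DESeq2 were Itga1 and Itga8, at log2 -0.51 ± 0.10 (limma adjusted p = 0.0715) and -0.83 ± 0.21 (limma adjusted p = 0.268). In the authors' deposited table the same 2 genes passed. Itga1 held 881 and 845 normalized counts in THOC5 osteogenic against 1215 and 1238 in THOC5 growth libraries, without overlap. In growth medium THOC5 and GFP cells differed by a median log2 of 0.03 over the 43 (-0.03 when scaled to library totals), with Itga8 at 0.81 ± 0.21 (limma adjusted p = 0.906), Itga1 at 0.34 ± 0.10 (limma adjusted p = 0.906) and Myh10 at 0.26 ± 0.10 (limma adjusted p = 0.906), of which none passed.

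Whether the medium's effect differed between THOC5 and GFP cells was tested as an interaction. The difference passed for 17 of the 43 genes by limma, all with a value above 0 (the response of THOC5 cells minus that of GFP cells), where 5.30% of all tested genes passed in that direction, 3.92% in the other and 9.22% in all. Scaled to library totals, 887 of all tested genes passed above 0 and 1381 below. In the other direction 0 of the 43 passed by limma, edgeR or DESeq2. At an unadjusted p under 0.05 there were 3 in that direction, against 2541 of all 22575 tested genes. The 17 were Itga1, Itga8, Itga11, Itgb5, Vcl, Tln1, Tln2, Zyx, Parva, Tns1, Actb, Actg1, Flna, Actn4, Myh9, Myh10 and Svil. Of these, Itga11 (log2 1.72 ± 0.17, limma adjusted p = 3.29e-04), Itga1 (log2 1.09 ± 0.14, adjusted p = 0.00158), Myh10 (log2 0.98 ± 0.14, adjusted p = 0.00185), Tln2 (log2 1.04 ± 0.15, adjusted p = 0.00213) and Tln1 (log2 0.79 ± 0.12, adjusted p = 0.00319) kept the call in each of the 17 alternative fits that tested them. With 1 library left out, the count of 17 fell to 10 (GFP growth replicate 1), 8 (GFP osteogenic replicate 1), 8 (THOC5 osteogenic replicate 1) and 5 (THOC5 osteogenic replicate 2). It was 10 with libraries scaled to their totals and 11 with no filter on low values. Itga6, Itga10 and Ptk2, which rose in GFP cells, had interactions of log2 -0.46 ± 0.60, -1.34 ± 0.51 and -0.27 ± 0.12, and none passed (limma adjusted p = 0.705, 0.138 and 0.199).

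Other genes of the pathway were read from 5 further lists of 108 genes, of which 104 were tested. None of the 104 passed in THOC5 cells between the media or between THOC5 and GFP cells in growth medium by limma. At an unadjusted p under 0.05 there were 7 and 2 of the 104, against 1282 and 1152 of all 22575 tested genes. Both edgeR and DESeq2 called 0 and 0. The interaction passed above 0 for 15 ligands, 12 adaptors, 9 LIM, PDZ and stress-fibre genes, 2 regulators and 1 other integrin gene. It passed below 0 for 2 adaptors and 1 other integrin gene. Over all tested genes 5.30% passed above 0 and 3.92% below, and the counts of 1 and 2 are not a result about their lists. Of 24 tested matrix ligands of the integrins 18 fell and 1 rose in GFP cells, against 10.6% and 10.3% of all tested genes. The median of the ligands was -0.99, against 0.00 over all tested genes. Npnt, nephronectin, the ligand of alpha8beta1, held 1890.2 and 1998 normalized counts in the GFP growth libraries, 734 and 826 in GFP osteogenic, 1993 and 2071 in THOC5 growth and 1718 and 1924 in THOC5 osteogenic and fell 2.49-fold (log2 -1.32 ± 0.09, limma adjusted p = 6.50e-06), beside the fall of Itga8. Tenascin C, Tnc (log2 -2.26 ± 0.16, limma adjusted p = 8.41e-06), and the collagen I chain Col1a2 (log2 -1.68 ± 0.14, limma adjusted p = 2.09e-05) fell too, and the ligand that rose was Spp1, osteopontin (log2 1.49 ± 0.31, limma adjusted p = 0.00587). Spp1 held 829.8 normalized counts on average in GFP osteogenic and 267 in GFP growth libraries. In osteogenic medium 17 ligands were higher in THOC5 than in GFP cells, against 11.3% of all tested genes. Scaled to library totals 15 ligands were higher and 3 lower. The 17 were led by Npnt (log2 1.22 ± 0.09, limma adjusted p = 9.11e-06) and Tnc (log2 2.17 ± 0.16, limma adjusted p = 9.50e-06).

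Among 34 other adhesion adaptors and kinases, 13 fell and 3 rose in GFP cells (12 and 6 when scaled to library totals). Of all tested genes 10.6% fell and 10.3% rose. The smallest p in the list were those of Tgfb1i1, the paxillin relative Hic-5 of smooth muscle (log2 -1.05 ± 0.09, limma adjusted p = 2.23e-05), Sorbs3, the vinculin-binding vinexin (log2 -1.05 ± 0.10, limma adjusted p = 3.39e-05), and Kank1, which binds talin (log2 -0.76 ± 0.08, limma adjusted p = 8.18e-05). Crk, an adaptor downstream of paxillin, rose (log2 0.39 ± 0.09, limma adjusted p = 0.00906), as did Parvb, beta-parvin (log2 0.82 ± 0.20, limma adjusted p = 0.0131), and the kinase gene Fyn (log2 0.62 ± 0.19, limma adjusted p = 0.0347). These 3 rises, 8.82% of the list, are near the share of all tested genes and are not a result about the list. In osteogenic medium 13 of the 34 were higher and 4 lower in THOC5 than in GFP cells, against 11.3% and 10.7% of all tested genes. The 4 lower (11.8%) are not a result about the list either. Tgfb1i1 stood at 1.04 ± 0.09 and Crk at -0.46 ± 0.09 on the log2 scale (limma adjusted p = 2.11e-05 and 0.00342). Of 24 other LIM, PDZ and stress-fibre genes 12 fell and 2 rose in GFP cells, against 10.6% and 10.3% of all tested genes. Falls in the list included Synpo, synaptopodin (log2 -1.12 ± 0.11, limma adjusted p = 4.52e-05), and Lmod1, the smooth muscle leiomodin that nucleates actin (log2 -1.29 ± 0.14, limma adjusted p = 9.68e-05). Pdlim1 (log2 0.39 ± 0.11, limma adjusted p = 0.0254) and the tropomodulin Tmod3 (log2 0.35 ± 0.10, limma adjusted p = 0.0319) rose, and these 2 (8.33%) are not a result about the list. THOC5 against GFP in osteogenic medium gave 11 higher and 2 lower of the 24, against 11.3% and 10.7% of all tested genes. Synpo stood at log2 1.21 ± 0.11 there (limma adjusted p = 2.57e-05).

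Of 13 regulators of the SRF and YAP pathways 3 fell (23.1%) and 1 rose (7.69%) in GFP cells, against 10.6% and 10.3% of all tested genes. With so few genes these counts are not a result about the list. Those that fell were Mrtfa, an actin-sensing SRF coactivator (log2 -0.63 ± 0.08, limma adjusted p = 2.91e-04), Tead3 (log2 -0.83 ± 0.13, limma adjusted p = 8.83e-04) and Srf itself (log2 -0.63 ± 0.11, limma adjusted p = 0.00242), and Tead2 rose (log2 0.41 ± 0.11, limma adjusted p = 0.0188). Srf held 989 and 766 normalized counts in the GFP growth libraries, 565 and 556 in GFP osteogenic, 839 and 914 in THOC5 growth and 764 and 768 in THOC5 osteogenic, so that the GFP osteogenic libraries were the lowest. The same 3 genes were higher in THOC5 than in GFP cells in osteogenic medium, with Mrtfa at log2 0.60 ± 0.08, Tead3 at 0.78 ± 0.13 and Srf at 0.45 ± 0.11 (limma adjusted p = 3.38e-04, 0.00116 and 0.0151), and scaled to library totals 2 of the list were higher and 2 lower. Of 9 tested integrin genes outside the 43, 2 fell and 1 rose in GFP cells (0 and 2 when scaled to library totals). At 22.2% and 11.1%, against 10.6% and 10.3% of all tested genes, these counts are not a result about the list. Those that fell were Itgb4 (log2 -0.63 ± 0.19, limma adjusted p = 0.0360) and Itga2b (log2 -0.59 ± 0.16, limma adjusted p = 0.0193). The one that rose was Itgb7, known from lymphocytes, with 4.66 and 6.65 normalized counts in the GFP growth libraries, 49.3 and 31.3 in GFP osteogenic, 3.86 and 6.69 in THOC5 growth and 4.54 and 4.69 in THOC5 osteogenic (log2 2.62 ± 0.44, limma adjusted p = 0.00167).

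Beside these genes, the summed markers of smooth muscle, fibroblasts, endothelium and Schwann cells were lower, and those of striated muscle higher, in the GFP osteogenic than in all other libraries. These are sums, and single markers did not all follow them. Of 4 endothelial markers tested in GFP cells, 2 estimates were higher and 2 lower, and 1 fell. Of 3 striated muscle markers tested, 2 estimates were higher and 1 lower, and 1 rose. Of 4 Schwann cell markers tested, 1 fell. Of 6 macrophage markers tested, 3 estimates were higher and 3 lower, and 1 rose and 1 fell. Of all tested genes 10.6% fell and 10.3% rose. Of the 7 smooth muscle markers 6 fell in GFP cells and 6 were higher in THOC5 than in GFP cells in osteogenic medium (5 higher and 1 lower when scaled to library totals). Desmin, Des, at 7.72 to 25.9 normalized counts, was the marker that passed in neither. Its estimates went against those of the other 6, at log2 1.08 in GFP cells and -1.11 for THOC5 against GFP in osteogenic medium. Both had an unadjusted limma p under 0.05. Of all tested genes 11.3% were higher in THOC5 than in GFP cells in osteogenic medium. Of the 8 fibroblast markers 4 fell in GFP cells and 5 were higher in that comparison. Their part in the results was not tested. The 43 genes together made up 1.65 to 1.78% of the normalized counts in GFP osteogenic libraries and 2.17 to 2.39% in the other 6. The authors' deposited table had calls for 31 of the 43 in the GFP response, 3 higher and the rest lower, and all 31 calls were shared with the limma fit, with the same sign. For THOC5 against GFP in osteogenic medium that table had 25 higher and 2 lower, of which 25 were shared with the limma fit.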

How the data were processed

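Polyadenylated RNA of 8 libraries was prepared, per the labels' protocols, with a TruSeq kit of the unstranded type. The deposited table holds 1 normalized signal value per gene and library, namely reads scaled by a size factor that is the same for all genes of a library. Dividing by the step of 1 read gave whole reads for 100% of values (tolerance 1e-06). The table also holds the authors' own log2 fold changes and adjusted p-values for 4 comparisons, per the file headers. The submitters' processing notes name FastQC, Bowtie2, MACS2, SAMtools and the mm10 build (GRCm38) with no versions or roles, while for the counting tool and its gene models nothing is given in the sources used here. Columns were matched to samples by their descriptions, and 0 columns of per-sample values were left unused.

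Since the values are not raw counts, limma 3.58.1 (R 4.3.3) with its trend option was fitted to log2(normalized count + 1) for the 22575 genes with a value of at least 1 in at least 2 libraries. The 4 groups entered 1 fit without a replicate block (4 residual degrees of freedom), and p-values were adjusted by Benjamini-Hochberg per comparison over all genes tested, with a threshold of 0.05. Log2 changes on this scale understate the change of low genes, and folds in the text are ratios of mean normalized counts. Errors after ± are standard errors of the fit, with 2 libraries per group. Replicates differed by more than counting noise, so none was merged. Gene positions and exon lengths are from GENCODE vM21.

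The alternatives were edgeR 4.0.16 and DESeq2 1.42.0 on the recovered reads, other pseudocounts, filters and scalings, a replicate block and leaving out each library. edgeR called 4832 genes between the media in GFP cells, 159 in THOC5 cells, 1 between THOC5 and GFP cells in growth medium, 5417 in osteogenic medium and 2454 interactions. Genes given with a value per library were, in each comparison and role, up to 4 with the smallest p in each direction and the most abundant per kb. Vcl, Ilk and Itga3 were added with their values known, as were the ligand classes of the alpha subunits. The 43 genes and all lists were chosen with earlier results of these data known. One further list of pathway genes is not reported here.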

Additional observations from a re-analysis of the deposited data

Results flagged for a closer look

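Each of the 17 genes below had a response to osteogenic medium that differed between THOC5 and GFP cells by limma's interaction test, adjusted over all genes tested. The value is the response of THOC5 cells minus that of GFP cells, on the scale of log2(normalized count + 1), and is above 0 where the fall in GFP cells was larger. Each group had 2 libraries, too few to look for a single library that stands apart.

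Itga11 stood at 1.72, Itga1 at 1.09, Tln2 at 1.04, Myh10 at 0.98 and Tln1 at 0.79, and these 5 kept the call under every alternative that tested them.

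The other 12 lost the call in some fits, given with the replicate left out or the setting and its adjusted p in brackets. Parva stood at 0.75 (limma adjusted p = 0.00592) and was lost without THOC5 osteogenic 2 (0.0696). Itga8 stood at 1.69 (limma adjusted p = 0.00611) and was lost without THOC5 osteogenic 2 (0.0757). Zyx stood at 0.62 (limma adjusted p = 0.00931) and was lost without THOC5 osteogenic 2 (0.0913). Actg1 stood at 0.70 (limma adjusted p = 0.0103) and was lost without GFP osteogenic 1 (0.0507), THOC5 osteogenic 1 (0.0539) or THOC5 osteogenic 2 (0.0973).

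Further calls of this kind were in genes of the actin network and in Itgb5. Vcl stood at 0.87 (limma adjusted p = 0.0117) and was lost without GFP osteogenic 1 (0.0546), THOC5 osteogenic 1 (0.0673) or THOC5 osteogenic 2 (0.104), and with no filter on low values (0.0567). Actb stood at 0.57 (limma adjusted p = 0.0251) and was lost without GFP growth 1 (0.0503), GFP growth 2 (0.0828), GFP osteogenic 1 (0.0520), THOC5 growth 1 (0.0892), THOC5 osteogenic 1 (0.112) or THOC5 osteogenic 2 (0.133), and scaled to library totals (0.0576). Svil stood at 0.54 (limma adjusted p = 0.0256) and was lost without GFP growth 1 (0.0782), GFP osteogenic 1 (0.101), THOC5 growth 2 (0.0803), THOC5 osteogenic 1 (0.0671) or THOC5 osteogenic 2 (0.157), and with no filter on low values (0.0646) and scaled to library totals (0.0549). Actn4 stood at 0.45 (limma adjusted p = 0.0287) and was lost without GFP growth 1 (0.0824), GFP growth 2 (0.0590), GFP osteogenic 1 (0.0669), THOC5 growth 1 (0.0792), THOC5 growth 2 (0.0659), THOC5 osteogenic 1 (0.0850) or THOC5 osteogenic 2 (0.156), and scaled to library totals (0.0765).

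Smaller margins were found in the last 4. Itgb5 stood at 0.46 (limma adjusted p = 0.0289) and was lost without GFP growth 1 (0.0688), GFP growth 2 (0.0757), GFP osteogenic 1 (0.0737), GFP osteogenic 2 (0.0538), THOC5 growth 1 (0.0661), THOC5 growth 2 (0.0765), THOC5 osteogenic 1 (0.0585) or THOC5 osteogenic 2 (0.159), and with no filter on low values (0.0507) and scaled to library totals (0.0820). Tns1 stood at 0.57 (limma adjusted p = 0.0299) and was lost without GFP growth 1 (0.0898), GFP osteogenic 1 (0.106), THOC5 growth 2 (0.0939), THOC5 osteogenic 1 (0.0963) or THOC5 osteogenic 2 (0.170), and with no filter on low values (0.0753) and scaled to library totals (0.0596). Flna stood at 0.65 (limma adjusted p = 0.0384) and was lost without GFP growth 1 (0.111), GFP osteogenic 1 (0.114), THOC5 growth 1 (0.0619), THOC5 growth 2 (0.115), THOC5 osteogenic 1 (0.0999) or THOC5 osteogenic 2 (0.202), and under 3 other settings (0.0558 to 0.0894). Myh9 stood at 0.57 (limma adjusted p = 0.0482) and was lost without GFP growth 1 (0.132), GFP growth 2 (0.0684), GFP osteogenic 1 (0.114), THOC5 growth 1 (0.0815), THOC5 growth 2 (0.131), THOC5 osteogenic 1 (0.128) or THOC5 osteogenic 2 (0.219), and with the replicate block (0.0628), and under 4 other settings (0.0571 to 0.0905).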

How the results depend on the processing

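Of 31 calls in the GFP response 21 were kept in all 18 alternatives, of 26 between THOC5 and GFP cells in osteogenic medium 17 were kept, and of 17 interactions 5 were kept in 17 alternatives, with 0 reversed. Leaving out 1 library gave 22 to 31, 18 to 26 and 5 to 17 genes. In THOC5 cells the count between media, 0 by limma, was 1 with a mean of at least 10, 2 by edgeR and 2 by DESeq2, and 0 to 1 without 1 library. The interaction count of 17 became 11 with no filter on low values and 10 when scaled to library totals. The replicate block gave 31, 0, 0, 26 and 17 genes in the 5 comparisons and changed no count, but the genes were not all the same: the Myh9 interaction was lost (adjusted p = 0.0628 by limma), while no other call was. Same-numbered libraries did not deviate together (correlation of deviations -0.02 to 0.05). This check cannot tell whether they shared a culture or day, which the labels do not give. Scaling to totals shifted all genes by 0.14 in the GFP response, -0.17 between THOC5 and GFP cells in osteogenic medium and -0.11 in the interaction, on the log2 scale, and the cause was not tested. Depth limits Itga6, Itga10 and Itgb8, with 3 to 50 reads per library. It also limits Itga2, Itga4, Itga7, Itga9 and Synpo2, with 24 to 70 reads, so that their failure to pass does not show absence of change.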
